A study of Mus musculus with 5 samples.

Results

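Induced pluripotent stem cells (iPSCs) were compared with mouse embryonic stem cells (mESCs, line V6.5) across genes that reached an FPKM (fragments per kilobase of transcript, scaled to the mapped fragments of the library) of 1 in one of both libraries or in both. This limit kept 12323 of the 24421 genes in the deposited table. Of these, 11085 reached an FPKM of 1 in both libraries, 748 in iPSCs only and 490 in mESCs only. The genes just inside the limit were Zfp354a, with an FPKM of 1.00 in iPSCs, Jak2 and Mfsd2a, and the nearest gene outside it was E130018N17Rik, at 0.999 in iPSCs. The iPSC lines of the study came from a cell repository, and the iPSCs, like the mESCs, were labelled as grown without feeder cells on gelatin in medium with KnockOut Serum Replacement and leukaemia inhibitory factor. The methods of the study also describe a culture of both cell types on feeder cells, with foetal bovine serum in place of the replacement. Another library of the same table, from mouse embryonic fibroblasts (MEFs) of E13.5 CF-1 embryos, served to ask whether a difference between iPSCs and mESCs lay in transcripts of fibroblasts. A further library, from V6.5 cells carrying a non-targeting control shRNA (NTC), came from a separately made table and gave a second profile of V6.5 cells. The labels name neither the clone nor the starting cells of the iPSC line, and V6.5 is a single line, so a difference between the cell types and a difference between these lines cannot be told apart. There was 1 library per cell type, so no difference below has a replicate check, an error or a p-value.

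Pluripotent cells are held in their state by a network of transcription factors around Oct4, Sox2 and Nanog. Leukaemia inhibitory factor and bone morphogenetic proteins favour the naive form of this state, whereas FGF and Nodal signals move cells towards the formative and primed states that precede gastrulation. Reprogramming of a somatic cell resets its chromatin, including DNA methylation, and the genes most often examined after it are imprinted genes, genes of germ cells and genes of the starting cell.

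The library labelled iPSC carried the markers of pluripotent cells at the level of V6.5 cells. Pou5f1, which encodes Oct4, had an FPKM of 975 in iPSCs, 1055 in mESCs, 1215 in NTC cells and 0.309 in MEFs. Sox2 had 251 in iPSCs, 197 in mESCs, 223 in NTC cells and 0.643 in MEFs. Nanog had 190.3 in iPSCs, 263 in mESCs, 249 in NTC cells and 0.163 in MEFs. All 3 stem cell libraries were thus at a like level for these factors, far above MEFs. The 39 listed fibroblast markers summed to 0.488% of their MEF level in iPSCs, and 2 of them were listed at 0 there. The female-specific transcript Xist was at 0.0426 in iPSCs and 0.0906 in mESCs. Estimated from the step between low values, the depth was about 22.1 M fragments (M, 1e6) in iPSCs, 24.7 M in mESCs, 24.6 M in MEFs and 29 M in NTC cells, and the last of these rests on only 13 values. At these depths 3 fragments on a transcript of 1 kb correspond to an FPKM of 0.136 in iPSCs and 0.1215 in mESCs, and at such levels differences between these libraries could not be detected.

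Most genes had a similar level in both libraries. The log2 ratio of iPSCs over mESCs, taken on FPKM + 0.1, had a median of 0.04 with quartiles of -0.39 and 0.48. At least 2-fold higher in iPSCs were 1241 genes (10.1%), and at least 2-fold lower were 917 (7.44%). At least 4-fold higher were 283 genes (2.3%), and at least 4-fold lower were 193 (1.57%). As a measure of how far apart 2 libraries of the same line can lie, NTC cells were set against mESCs, with the limit that these values come from separate tables and that NTC cells carry a vector. There, 601 of 12048 genes (4.99%) were at least 2-fold higher in NTC cells and 1235 (10.3%) at least 2-fold lower, with 1.25% and 2.62% at least 4-fold apart in these directions. The robust SD of the log2 ratios was 0.65 for iPSCs over mESCs and 0.59 for NTC cells over mESCs, so the spread between the cell types was only slightly wider than that between the V6.5 libraries. Against NTC cells, 2003 of 12283 genes (16.3%) were at least 2-fold higher in iPSCs and 959 (7.81%) lower, and 4.67% and 1.6% were at least 4-fold apart. Higher genes thus made up 57.5% of those called against mESCs and 67.6% of those called against NTC cells. The NTC value is therefore given beside most of the genes described in full below. The share called moved with the handling of low values, to 753 higher and 556 lower with a pseudocount of 1. The balance moved with the scale, and higher genes made up 51.7% of those called against mESCs after rescaling to equal FPKM sums. Centring the ratios on the median of all genes gave 53.6%.

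**Figure D1:**
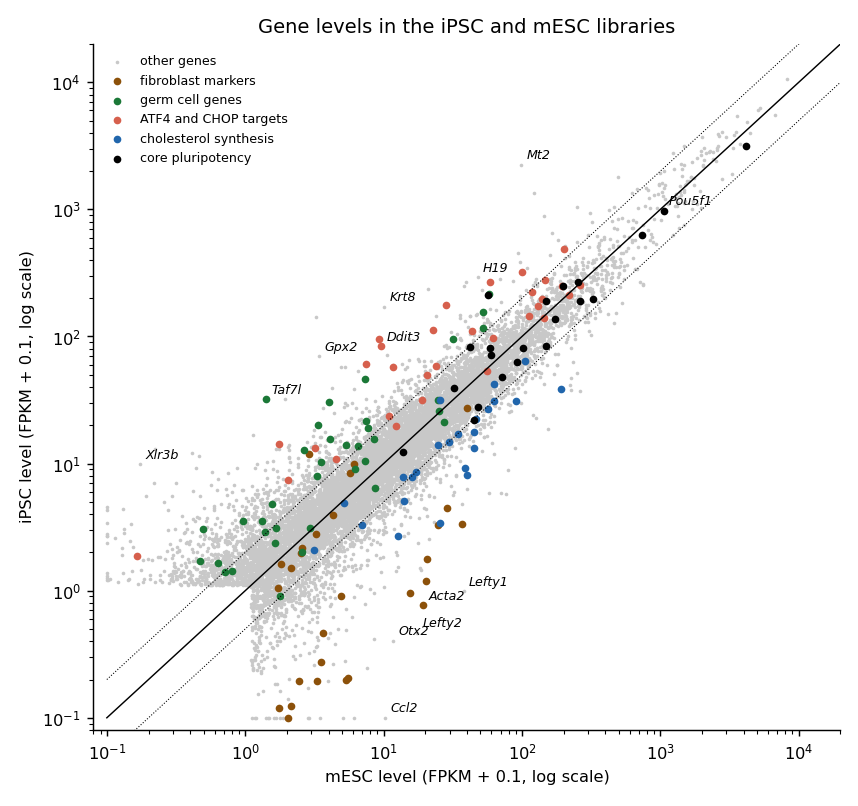
Level of each of the 12323 genes in mESCs (x axis) and iPSCs (y axis), as FPKM + 0.1 on log axes, with the line of equality and dotted lines at 2-fold. Germ cell genes and ATF4 targets lie mostly above the line, cholesterol synthesis genes and fibroblast markers below it, and core pluripotency genes along it.

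Of 21 listed core pluripotency genes, 19 lay within 2-fold, as did 82.5% of all genes compared, with a median log2 ratio of -0.25. The exceptions were Dnmt3l, the catalytically inactive partner of the de novo DNA methyltransferases, with an FPKM of 210.1 in iPSCs, 57.1 in mESCs, 135 in NTC cells and 0.0375 in MEFs, and Gdf3, a TGF-beta family ligand, with 21.8, 44.8, 52.9 and 0.105 in the same order. Lin28a, the RNA-binding protein that blocks maturation of let-7, had 27.9 in iPSCs, 47.6 in mESCs and 74.3 in NTC cells. Among the reprogramming factors, Klf4 stood at 104.7 in iPSCs, 42.2 in mESCs, 54.5 in NTC cells and 22.2 in MEFs. Myc stood at 4.61 in iPSCs, 2.11 in mESCs, 19 in NTC cells and 31.3 in MEFs. For Klf4, the iPSC value was the highest of the 4, whereas for Myc it lay between the V6.5 libraries. Reads of a reprogramming vector, if present in iPSCs, cannot be told apart from those of the endogenous genes.

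Genes of the naive state lay on both sides. Of 19 listed naive genes, 5 were at least 2-fold higher in iPSCs (26.3%) and 4 at least 2-fold lower (21.1%), against 10.1% and 7.44% of all genes, with a median of 0.36. Klf5, a Krüppel-like factor of self-renewal, had an FPKM of 146 in iPSCs, 35.8 in mESCs, 96.0 in NTC cells and 5.66 in MEFs. Dppa3 (Stella), a maternal factor that protects DNA from demethylation, had 14.4 in iPSCs, 60.6 in mESCs and 11.7 in NTC cells, and was listed at 0 in MEFs. The NTC library thus lay near iPSCs, not near mESCs, for Dppa3. Against NTC cells, the median of the list was -0.13. Of 19 listed targets of LIF and STAT3, 3 were higher in iPSCs (15.8%, against 10.1% of all genes) and none lower at 2-fold, with a median of 0.28 and values from -0.94 for Bcl3 to 2.03 for Klf5.

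The transcripts of the formative state and of Nodal feedback held some of the lowest ratios of iPSCs over mESCs. Lefty1 and Lefty2, secreted inhibitors that are switched on by Nodal signalling and limit it, were low in iPSCs. Lefty1 had an FPKM of 0.888 in iPSCs, 37.8 in mESCs, 3.54 in NTC cells and 1.16 in MEFs, a level 42.6-fold higher in mESCs than in iPSCs. Lefty2 had 0.367 in iPSCs, 17.4 in mESCs and 18.5 in NTC cells, and was listed at 0 in MEFs. Both V6.5 libraries therefore had Lefty2 at nearly the same level, while for Lefty1 the NTC value lay between mESCs and iPSCs. Nodal itself, the ligand, was at 93.0 in iPSCs, 52.0 in mESCs and 36.1 in NTC cells, and its co-receptor Tdgf1 at 195, 324 and 237. Over the 18 listed genes of the Nodal and activin pathway that passed, 4 were higher (22.2%) and 6 lower (33.3%) in iPSCs at 2-fold. Of all genes, 10.1% were higher and 7.44% lower. The median of the list was -0.10. Lefty1 and Lefty2 were among the 4 that passed through mESCs only and so had to be lower in iPSCs. Of the 12 at the limit in both libraries, 2 were higher and 2 lower.

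Otx2, a transcription factor of the formative state and of the anterior epiblast, had an FPKM of 0.304 in iPSCs, 11.5 in mESCs and 0.592 in NTC cells, and was listed at 0 in MEFs. NTC cells were again close to iPSCs for Otx2. Fgf15, a growth factor of the early embryo, had 0.680 in iPSCs, 7.29 in mESCs and 2.50 in NTC cells. Dnmt3a, a de novo DNA methyltransferase, had 5.40 in iPSCs, 23.2 in mESCs, 12.2 in NTC cells and 5.70 in MEFs. For Fgf15 and Dnmt3a, both V6.5 libraries were above iPSCs. Of 19 listed formative and primed genes, 9 were at least 2-fold lower in iPSCs (47.4%, against 7.44% of all genes). Of them, 2 were higher (10.5%, against 10.1%), the ERK-responsive genes Etv4 and Dusp6. The median of this list was -0.83. Of the 19, 4 passed the limit through mESCs only and so had to be lower in iPSCs, and over the other 15 the median was 0.04, with 5 lower and 2 higher. Zic2, Zic5, Sall2 and Lef1 were among those lower, and Pou3f1, a further formative factor, was at 9.58 in iPSCs, 9.30 in mESCs and 7.02 in NTC cells. The de novo methyltransferase Dnmt3b was at 32.4 in iPSCs, 24.5 in mESCs and 65.0 in NTC cells. Of 21 genes of DNA methylation, 2 were higher (9.52%) and 3 lower (14.3%) at 2-fold, against 10.1% and 7.44% of all genes, with a median of 0.29.

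Signalling through ERK and BMP is read from feedback and target genes. Etv4, an ETS factor induced by FGF, had an FPKM of 232 in iPSCs, 51.1 in mESCs, 109.0 in NTC cells and 12.9 in MEFs. Spry2, a feedback inhibitor of the pathway, had 139 in iPSCs, 35.7 in mESCs and 77.3 in NTC cells. Of 23 listed genes of ERK feedback, 9 were at least 2-fold higher (39.1%, against 10.1% of all genes). Only 1, Ccnd1 (cyclin D1), was lower (4.35%, against 7.44%), and the median was 0.50. Ccnd1 had 8.97 in iPSCs, 23.7 in mESCs and 43.8 in NTC cells. Etv5, a close relative of Etv4, was in contrast at 42.7 in iPSCs, 76.0 in mESCs and 136 in NTC cells. Id1, Id2 and Id3, targets of BMP that restrain differentiation, had log2 ratios of 2.66, 2.35 and 1.96. Id1 was at 96.0 in iPSCs, 15.2 in mESCs and 67.0 in NTC cells, whereas Id2 was at 29.8, 5.77 and 1.05. iPSCs were thus the highest of the stem cell libraries for Id1 and Id2, whereas the iPSC level of Id3 (55.4) lay under that of NTC cells (97.7). Of 20 listed genes of the BMP pathway, 5 were higher (25%) and 1 lower (5%) at 2-fold, against 10.1% and 7.44% of all genes, with a median of 0.22. Of the 20, 4 passed through iPSCs only and 1 through mESCs only, and over the other 15, 3 were higher, none was lower and the median was -0.09.

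Among 20 immediate early genes, which respond to growth factors and stress within minutes, 8 were higher (40%) and 1, Jund, was lower (5%). Of all genes, 10.1% were higher and 7.44% lower. The median was 0.79. Of the 20, 1 passed through iPSCs only and Jund through mESCs only, so their directions were fixed by the limit. Over the other 18, 7 were higher, none was lower and the median was again 0.79. Maff, a small Maf factor, had an FPKM of 16.1 in iPSCs, 3.40 in mESCs, 4.67 in NTC cells and 13.5 in MEFs, and Egr1 had 22.8, 5.73, 3.97 and 54.4. Jund, which most cells express, was at 0.364 in iPSCs and 1.84 in mESCs but at 118 in NTC cells and 142 in MEFs. Its exons overlap those of Gm11175 on the other strand in GENCODE M21, so its value is uncertain. Of 21 Wnt pathway genes, 7 were higher (33.3%) and 4 lower (19%) in iPSCs than in mESCs, against 10.1% and 7.44% of all genes. The median was -0.07. Over the 17 at the limit in both libraries, 4 were higher and 3 lower, with a median of -0.36. Axin2, Sp5 and Cdx1, direct Wnt targets, were higher in iPSCs than in mESCs, at 4.69, 1.28 and 29.8 against 1.49, 0.554 and 12.1, but highest in NTC cells, at 16.6, 11.6 and 157. Wnt6, a ligand, had 9.81 in iPSCs, 1.11 in mESCs and 2.32 in NTC cells.

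Transcripts of extraembryonic and simple epithelial cells were higher in iPSCs. Keratins 8 and 18, which pair in the first epithelium of the embryo, were the clearest case. Krt8 had an FPKM of 171 in iPSCs, 9.98 in mESCs, 9.09 in NTC cells and 2.45 in MEFs, a 17.2-fold difference between iPSCs and mESCs. Krt18 had 234 in iPSCs, 20.8 in mESCs, 11.9 in NTC cells and 10.5 in MEFs, and Krt19 had 57.9, 4.81, 1.36 and 32.7. Krt7 had 24.9 in iPSCs, 4.26 in mESCs, 0.574 in NTC cells and 4.70 in MEFs. For these 4 keratins, iPSCs were the highest of the 4 libraries. Of the 50-base stretches of Krt8, 26.9% are shared with the copy Krt8-ps, so the value of Krt8 is uncertain to that extent.

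Of 20 listed trophectoderm genes, 13 were at least 2-fold higher in iPSCs (65%, against 10.1% of all genes). Only 1 was lower (5%, against 7.44%), and the median was 1.48. Over the 17 that reached the limit in both libraries, 11 were higher and the median was 1.3. Hand1, a basic helix-loop-helix factor of trophoblast giant cells and mesoderm, had an FPKM of 13.6 in iPSCs, 3.01 in mESCs and 0.382 in NTC cells. Cdx2, the factor that sets up the trophectoderm, had 3.34 in iPSCs, 0.274 in mESCs and 5.41 in NTC cells, so for Cdx2 iPSCs were under the second V6.5 library. Esx1, a placental homeobox gene, was lower, with 35.7 in iPSCs, 87.4 in mESCs and 8.45 in NTC cells. Rhox5, Rhox6 and Rhox9, further members, lie in the Rhox cluster described below. Among the top genes outside the lists was Dlx3, a homeobox factor of placenta and skin, with 16.6 in iPSCs, 1.04 in mESCs and 1.58 in NTC cells.

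Primitive endoderm genes showed the same direction, with 12 of 20 higher (60%), 1 lower (5%) and a median of 1.21. Of all genes, 10.1% were higher and 7.44% lower at 2-fold. Of the 20, 5 passed through iPSCs only, and over the 14 at the limit in both libraries 7 were higher, none was lower and the median was 0.95. This list shares Krt8 and Krt18 with the previous one. Gata6, the factor that specifies this lineage, had an FPKM of 4.46 in iPSCs, 0.646 in mESCs, 0.462 in NTC cells and 3.56 in MEFs, and Gata4 had 9.99, 3.52, 2.38 and 0.826. Sox17 had 2.57 in iPSCs, 0.571 in mESCs and 0.160 in NTC cells. These levels are small beside those of the pluripotency factors. Fewer cells of a type and less RNA per cell cannot be told apart in bulk RNA, so such a level may come from few cells or from all. Of 23 listed epithelial genes, 7 were higher (30.4%, against 10.1% of all genes) and 2 lower (8.7%, near the 7.44% of all genes). The median was 0.66. Cldn4 (claudin 4) was among the higher, at 387 in iPSCs, 97.3 in mESCs and 27.6 in NTC cells. Of 12 listed genes of the primitive streak and early mesoderm, 6 were higher (50%, against 10.1% of all genes) and none lower. The median was 0.73, and 0.07 against NTC cells. Over the 9 at the limit in both libraries, 3 were higher and the median was 0.11. Of 14 early neural genes, 3 were higher (21.4%) and 6 lower (42.9%), against 10.1% and 7.44% of all genes. The median was -0.02, and of the 10 at the limit in both libraries 1 was higher and 4 were lower. Sox1, the first neural Sox factor, had 1.66 in iPSCs, 7.62 in mESCs and 1.43 in NTC cells, and Nes (nestin) had 1.38, 6.17 and 4.10.

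Cells in the 2-cell-like state, a rare state within mESC cultures, express the Zscan4 cluster and other genes of the first cleavages. Of 13 such genes that passed, none was higher in iPSCs at 2-fold, against 10.1% of all genes. At 2-fold, 7 were lower (53.8%, against 7.44% of all genes), and the median was -1.10. Of the 13, 5 passed through mESCs only and so had to be lower in iPSCs. Over the other 8, 3 were lower and the median was -0.83, and over all 22 in the table, without the limit, it was -0.48. The 5 Zscan4 genes lie next to each other on chromosome 7 and summed to an FPKM of 5.32 in iPSCs, 15.9 in mESCs and 2.73 in NTC cells. mESCs were thus the highest and NTC cells the lowest, and the median of the list against NTC cells was 0.79. The copies are near identical, with 63.6% of the 50-base stretches of Zscan4a found in other genes, so the values of single copies are uncertain.

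**Figure D2:**
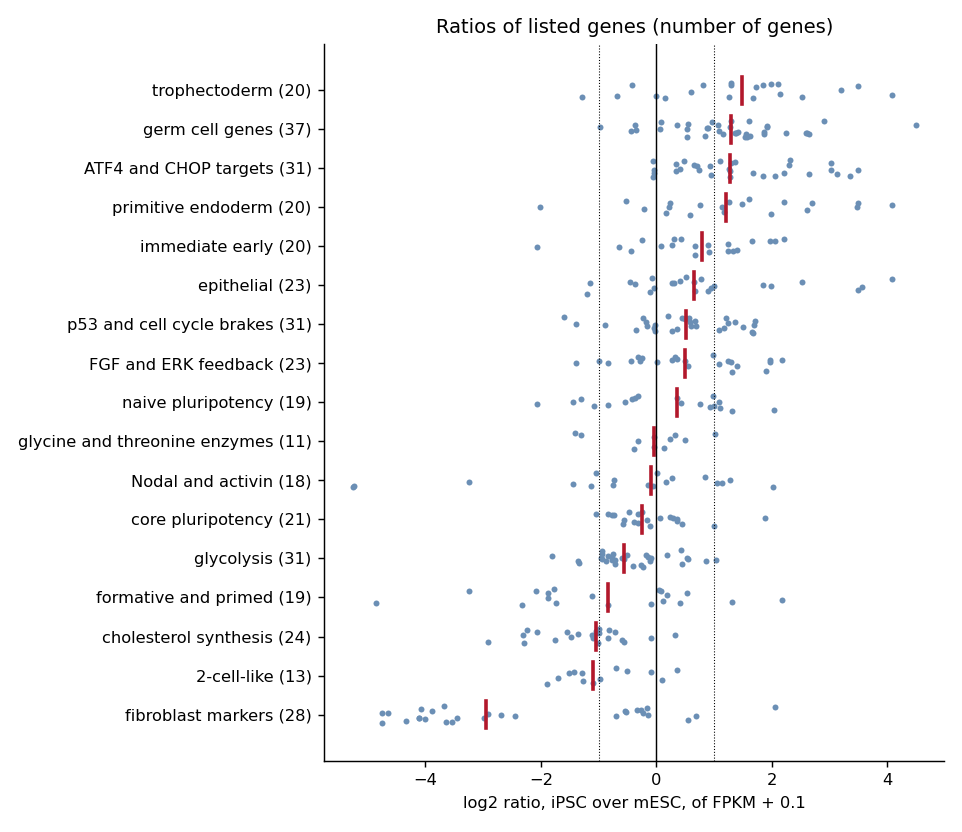
Log2 ratio of iPSCs over mESCs (x axis, of FPKM + 0.1) for the members of 17 gene lists, with the number of genes that passed the limit in brackets, the median as a red bar and dotted lines at 2-fold. Medians run from -2.95 for fibroblast markers to 1.48 for trophectoderm genes.

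Genes of germ cells and meiosis formed one of the largest groups higher in iPSCs. Many of these genes are kept silent in somatic cells and early embryos by DNA methylation and by repressor complexes at E-boxes and E2F sites of their promoters. Of 37 listed genes that passed, 23 were at least 2-fold higher in iPSCs (62.2%, against 10.1% of all genes) and none was lower, with a median of 1.3. Over the 30 at the limit in both libraries, 19 were higher and the median was 1.29. Taf7l, a germ cell form of a TFIID subunit on the X chromosome, had an FPKM of 32.0 in iPSCs, 1.31 in mESCs, 0.299 in NTC cells and 0.0210 in MEFs. Sycp3, a protein of the synaptonemal complex, had 19.9 in iPSCs, 3.24 in mESCs and 0.588 in NTC cells. Fkbp6, which takes part in piRNA loading and meiosis, had 45.8 in iPSCs, 7.28 in mESCs and 26 in NTC cells, and Rhox13 had 30.2, 3.95 and 6.16. Dazl and Ddx4, markers of germ cells, were at 10.3 and 15.6 in iPSCs, 3.41 and 4.03 in mESCs, and 3.66 and 1.89 in NTC cells. Stra8, the gatekeeper of meiosis, was at 155 in iPSCs, 52.5 in mESCs and 22.6 in NTC cells. All of these were at or near 0 in MEFs, where the list summed to 7.65 against 980 in iPSCs, 373 in mESCs and 431 in NTC cells. Their levels in iPSCs were therefore not those of the fibroblasts measured here. Tuba3b was the lowest of the list, at 0.813 in iPSCs and 1.69 in mESCs, and shares 29.5% of its 50-base stretches with other tubulin genes.

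Promoter sequences of RefSeq (build GRCm38.p6, 250 bases before to 50 after the start) were matched to 33 of these 37 genes and searched on both strands for the E-box CACGTG and the E2F-type motif TTCCCGC. The E-box was found in 14 of the 33 (42.4%), beside 12.2% of 9743 promoters of all genes compared, and TTCCCGC in 10 (30.3%) beside 10.2%. The E-box was found in 10 of the 22 genes at least 2-fold higher in iPSCs and in 4 of the 11 others, and TTCCCGC in 6 of the 22 and 4 of the 11. Only 79.1% of all genes had a matched promoter, so these shares describe the matched genes and are void as a comparison. The 90 bases around the E-box (in capitals) are shown for the 3 genes with the highest ratios among those with a match before the start, all on the minus strand, Taf7l at chrX:134476492-134476581, Fkbp6 at chr5:135350098-135350187 and Sycp1, a component of the synaptonemal complex, at chr3:102936147-102936236.
Taf7l: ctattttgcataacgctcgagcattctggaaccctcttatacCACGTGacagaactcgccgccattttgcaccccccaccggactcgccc
Fkbp6: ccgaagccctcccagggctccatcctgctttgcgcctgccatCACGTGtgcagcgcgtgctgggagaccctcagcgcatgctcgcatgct
Sycp1: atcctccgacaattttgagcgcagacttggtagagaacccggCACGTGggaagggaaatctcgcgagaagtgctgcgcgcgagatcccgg

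Clusters of genes on the X chromosome differed together. Among genes ordered along the genome, 22 runs of at least 4 neighbours were all at least 2-fold apart in the same direction, of which 12 were higher in iPSCs and 10 lower. The 3 longest lay on X. The first held 11 genes around the Xlr3, Xlr4 and Xlr5 families, lymphocyte-regulated genes of which several are imprinted, and all 9 family members compared passed the limit through iPSCs only and so had to be higher in iPSCs. Xlr3b had an FPKM of 9.82 in iPSCs, 0.0745 in mESCs, 9.81 in NTC cells and 0.50 in MEFs, and Xlr3a had 11.9, 0.309, 10.2 and 0.110. Xlr4b, Xlr4c, Xlr5a, Xlr5b and Xlr5c were listed at 0 in mESCs and between 1.71 and 7.05 in NTC cells. All 9 were lower in mESCs than in iPSCs and NTC cells. The latter pair was close for Xlr3a and Xlr3b, whereas Xlr3c was at 2.98 in iPSCs and 15.1 in NTC cells. Copies share much of their sequence (56.5% of the 50-base stretches of Xlr3b), and Xlr3a shares stretches also with Xlr3d-ps outside the run, so single values are uncertain. The run summed to 58.1 in iPSCs, 4.21 in mESCs and 75 in NTC cells. The second run, of 7 genes around Fthl17, a ferritin-like gene family, summed to 101 in iPSCs, 22 in mESCs and 24.0 in NTC cells. The other was the Rhox cluster of reproductive homeobox genes, where the 6 Rhox genes that passed were all higher in iPSCs, with a median log2 ratio of 1.79, and NTC cells went both ways. Rhox5 had 137.5 in iPSCs, 56.1 in mESCs and 155 in NTC cells, and Rhox1 had 16.5, 2.97 and 11.5, whereas Rhox6 had 37.5, 11.7 and 3.42 and Rhox9 had 29.0, 11.7 and 0.877.

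AI662270 and LOC105246506 showed the pattern of the Xlr cluster, with an FPKM of 6.97 and 32.2 in iPSCs, 0.12 and 1.83 in mESCs, and 11 and 23 in NTC cells. So did E130012A19Rik, also known as Epop, a subunit of Polycomb repressive complex 2, with 884 in iPSCs, 145 in mESCs, 787 in NTC cells and 4.82 in MEFs. Of 30 Polycomb genes, 4 were higher (13.3%, against 10.1% of all genes) and none lower at 2-fold, with a median of 0.32, and of these E130012A19Rik and the chromobox gene Cbx8 lie on the distal part of chromosome 11 described below. Cbx8 was at 7.09 in iPSCs, 1.59 in mESCs and 3.57 in NTC cells, so that NTC cells lay between the others.

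Genes of amino acid deprivation and endoplasmic reticulum stress were higher in iPSCs. Their transcription is driven by ATF4, whose translation increases when the initiation factor eIF2 is phosphorylated, and by its partner CHOP, encoded by Ddit3. Of 31 listed genes that passed, 18 were at least 2-fold higher in iPSCs (58.1%, against 10.1% of all genes) and none was lower. Of all genes, 7.44% were lower, and the median of the list was 1.27. Ddit3 had an FPKM of 83.9 in iPSCs, 9.48 in mESCs, 4.08 in NTC cells and 150 in MEFs. Atf4 itself was at 319.6 in iPSCs, 99.8 in mESCs, 143 in NTC cells and 262 in MEFs. Trib3, a pseudokinase that feeds back on ATF4, had 112 in iPSCs, 22.5 in mESCs, 17.6 in NTC cells and 109.5 in MEFs. Nupr1, a stress-induced nuclear protein, had 178 in iPSCs, 28.2 in mESCs, 8.75 in NTC cells and 90.6 in MEFs. For Ddit3, Trib3 and Nupr1, iPSCs were above both V6.5 libraries, and MEFs, which express these genes as well, were at a level similar to iPSCs or within a factor of 2 of it.

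Cth, which makes cysteine from cystathionine, had an FPKM of 95.6 in iPSCs, 9.20 in mESCs, 19.3 in NTC cells and 16.0 in MEFs. Atf5 had 60.5 in iPSCs, 7.35 in mESCs, 9.06 in NTC cells and 244 in MEFs, and Stc2, a secreted glycoprotein induced by stress, had 14.1, 1.64, 3.47 and 8.01. Chac1, which degrades glutathione, had 57.3 in iPSCs, 11.5 in mESCs, 4.44 in NTC cells and 53 in MEFs, and Ddit4, an inhibitor of mTORC1, had 270.5, 58.1, 38.7 and 61.7. Aars, the alanyl-tRNA synthetase, had the lowest ratio of the 31 that passed, at 253 in iPSCs and 264 in mESCs. Psph, which makes serine in its last step and responds to ATF4, is taken up with the glycine enzymes below.

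The composite site of ATF4 and C/EBP factors, searched as TGATGNAA on both strands, was found in 9 of the 25 listed genes with a RefSeq promoter (36%), beside 2.54% of all promoters, which again cover only 79.1% of the genes, so that the comparison is void. It was found in 7 of the 17 genes at least 2-fold higher and in 2 of the 8 others. The promoters of 3 genes are shown with the match in capitals, for Fgf21, a hormone of energy stress, at chr7:45615581-45615670 on the minus strand, Nupr1 at chr7:126625532-126625621 on the minus strand and Chac1 at chr2:119351008-119351097 on the plus strand.
Fgf21: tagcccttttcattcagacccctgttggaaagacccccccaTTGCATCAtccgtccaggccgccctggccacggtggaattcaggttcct
Nupr1: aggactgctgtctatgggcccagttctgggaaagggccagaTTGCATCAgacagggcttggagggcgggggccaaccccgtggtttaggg
Chac1: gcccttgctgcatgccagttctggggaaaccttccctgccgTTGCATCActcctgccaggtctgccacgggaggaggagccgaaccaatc

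Mt2, Gpx2 and Hrk were among the 15 genes named for the highest ratios, and Mt1 was chosen after its values were seen. Metallothioneins bind zinc and copper and respond to metals and oxidants. Mt2 had an FPKM of 2250.1 in iPSCs, 98.0 in mESCs, 345 in NTC cells and 87.3 in MEFs, and Mt1 had 1336 in iPSCs, 121 in mESCs, 246 in NTC cells and 192 in MEFs. Gpx2, a glutathione peroxidase of epithelia, had 69.7 in iPSCs, 3.31 in mESCs and 6.46 in NTC cells and was listed at 0 in MEFs. Of 31 genes of the p53 pathway and cell cycle control, 10 were higher (32.3%) and 2 lower (6.45%), against 10.1% and 7.44% of all genes, with a median of 0.52. Trp53inp1, a p53 target, had 22.2 in iPSCs, 6.71 in mESCs and 6.36 in NTC cells, and Cdkn1a, which encodes p21, had 147, 46.6 and 72.9. Ccne1 (cyclin E1) was lower, at 59.1 in iPSCs, 180 in mESCs and 193 in NTC cells. Hrk, a pro-apoptotic BH3-only protein, had 6.98 in iPSCs, 0.215 in mESCs and 0.266 in NTC cells.

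Genes of cholesterol synthesis were lower in iPSCs. Their transcription is raised by SREBP2 when the sterol content of the cell falls. Of 24 listed genes, 15 were at least 2-fold lower in iPSCs (62.5%, against 7.44% of all genes), none was higher at 2-fold, and only Ebp had a ratio above 0 (0.33). The median was -1.05. Fdps, which makes farnesyl diphosphate, had an FPKM of 38.8 in iPSCs, 191 in mESCs, 87.4 in NTC cells and 288 in MEFs. It shares 26.2% of its 50-base stretches with other genes, so its value is uncertain to that extent. Dhcr7, the last step of cholesterol synthesis, had 7.99 in iPSCs, 39.8 in mESCs, 23.5 in NTC cells and 26.8 in MEFs. In both of these, iPSCs were the lowest of the 4 libraries. Idi1 and Insig1 had log2 ratios of -2.25 and -2.06, and Hmgcs1 and Sqle had -1.36 and -0.84. Scd2, a fatty acid desaturase and target of the related factor SREBP1, had 5.64 in iPSCs, 76.5 in mESCs, 89.4 in NTC cells and 359 in MEFs. The list was also lower in NTC cells than in mESCs, with a median of -0.71, and lower in iPSCs than in NTC cells, with a median of -0.68.

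The sterol element TCACNCCAC was found in 1 of the 17 listed genes with a RefSeq promoter, beside 1.44% of all promoters, and the CCAAT box in 16 of the 17 (94.1%), beside 43.6%. Only 17 of the 24 listed genes and 79.1% of all genes had a matched promoter, so these shares describe the matched genes and are void as a comparison. The CCAAT box was found in all 11 genes at least 2-fold lower and in 5 of the 6 others. The promoters of 3 genes are shown with CCAAT, or ATTGG on the printed strand, in capitals, for Idi1 at chr13:8885516-8885605 and Insig1 at chr5:28071162-28071251 on the plus strand and Msmo1, a C4-methylsterol oxidase, at chr8:64733692-64733781 on the minus strand.
Idi1: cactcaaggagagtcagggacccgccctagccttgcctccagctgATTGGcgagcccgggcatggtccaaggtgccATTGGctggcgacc
Insig1: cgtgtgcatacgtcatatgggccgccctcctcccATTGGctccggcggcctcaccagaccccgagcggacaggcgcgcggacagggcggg
Msmo1: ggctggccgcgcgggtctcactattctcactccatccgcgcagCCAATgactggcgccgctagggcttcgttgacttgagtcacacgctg

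**Figure D3:**
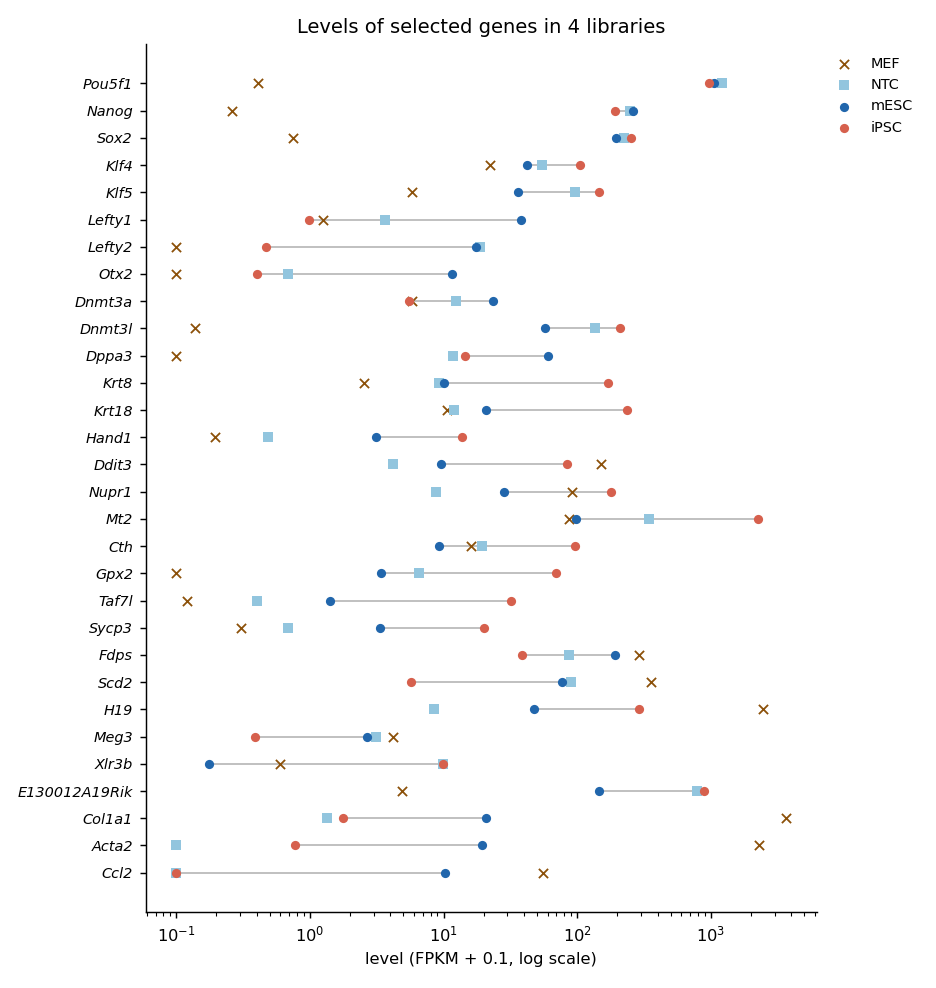
Levels (FPKM + 0.1, log axis) of 30 genes in iPSCs (red circles), mESCs (dark blue circles), NTC cells (light blue squares) and MEFs (crosses), with a line between iPSCs and mESCs. Lefty2, Ccl2 and Acta2 show 3 different positions of the NTC library, at the mESC level for the first and at or under the iPSC level for the others.

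Of 11 enzymes of glycine, serine and threonine, 8 lay within 2-fold, 1 was higher and 2 were lower, against 82.5% of all genes within 2-fold, with a median of -0.04. Gldc, the decarboxylase of the glycine cleavage system, had an FPKM of 70.8 in iPSCs, 59.7 in mESCs, 74.7 in NTC cells and 0.123 in MEFs, and Amt, its aminomethyltransferase, had 102.7, 81.9, 75.7 and 0.530. Gcsh, the lipoyl carrier protein of the same system, had 51.7 in iPSCs, 137 in mESCs, 205 in NTC cells and 39.8 in MEFs. It lies on chromosome 8, whose genes were lower in iPSCs as a group. Dld was at 32.1 in iPSCs and 29.3 in mESCs. Tdh, the threonine dehydrogenase of mouse pluripotent cells, had 138 in iPSCs, 172 in mESCs and 583 in NTC cells, and Gcat, the next enzyme of the same route, had 21.8, 53.6 and 55.4. Psph had 81.0 in iPSCs, 39.9 in mESCs, 43.4 in NTC cells and 44.9 in MEFs. The ratios of Phgdh, Psat1, Shmt1 and Shmt2 were -0.05, -0.04, -0.38 and 0.50. Phgdh shares 47.8% of its 50-base stretches with other genes, so its value is uncertain.

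Of 25 genes of folate and one-carbon metabolism, 4 were higher (16%) and 2 lower (8%), against 10.1% and 7.44% of all genes, with a median of -0.21. Of the 4 higher genes, Dmgdh, Bhmt and Bhmt2 passed the limit through iPSCs only, and over the 22 at the limit in both libraries 1 was higher and 2 were lower, with a median of -0.26. Ahcy, which breaks down S-adenosylhomocysteine, was lower, at an FPKM of 103 in iPSCs, 242 in mESCs, 234 in NTC cells and 51.9 in MEFs. Gnmt was lower too, at 3.89 in iPSCs, 10.4 in mESCs and 6.09 in NTC cells. Dmgdh and Bhmt, which act in betaine breakdown, and Bhmt2, a homocysteine methyltransferase, were at 2.1, 2.01 and 1.23 in iPSCs, 0.0538, 0.197 and 0.107 in mESCs and 3.41, 1.29 and 1.71 in NTC cells, a further set for which the mESC library stood apart. Among 31 genes of glycolysis and its regulation by HIF, 24 had a ratio under 0, and the median was -0.56. Only 3 were 2-fold lower (9.68%) and 1 was higher (3.23%), against 7.44% and 10.1% of all genes. Eno1 was at 1029 in iPSCs, 1976 in mESCs and 2062 in NTC cells, Ldha at 284, 549 and 869, and Aldoc at 4.12, 14.6 and 6.52. NTC cells showed a median of -0.52 over mESCs for the same genes. Of 46 respiratory chain genes, 45 lay within 2-fold, and of 62 cytosolic ribosomal protein genes, 59 did, against 82.5% of all genes. Their medians were 0.09 and 0.25.

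Imprinted genes, expressed from a single parental copy, differed at several loci. The maternally expressed RNAs of the Dlk1-Dio3 region, whose silencing has been used as a mark of incompletely reprogrammed lines, were lower in iPSCs. Meg3 had an FPKM of 0.288 in iPSCs, 2.57 in mESCs, 3.01 in NTC cells and 4.10 in MEFs. Rian had 3.27, 13.2, 17.9 and 60.9, and Mirg had 0.373, 2.89, 4.72 and 6.41, in the same order. iPSCs were the lowest of the 4 libraries for all 3 RNAs. However, Meg3 and Mirg passed the limit through mESCs only and so had to be lower in iPSCs than in mESCs. The paternally expressed Dlk1 was at 1.31 in iPSCs, 0.574 in mESCs, 2.30 in NTC cells and 38.1 in MEFs, Dio3 at 1.84, 0.464, 0.913 and 1.5, and Begain at 1.58, 1.25, 1.60 and 4.45. Dlk1 and Dio3 passed the limit through iPSCs only and so had to be higher in iPSCs than in mESCs. Rian and Begain alone reached it in both libraries. Rtl1, Dio3os and Mir770 did not pass the limit, with levels of 0.0173, 0.124 and 0 in iPSCs. The region lies on the distal part of chromosome 12, whose genes were lower in iPSCs as a group, with a median log2 ratio of -0.78, and the ratio of Meg3 was -2.78. The part of the chromosome in the difference was not tested.

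H19, a growth-restraining RNA from the maternal copy, had an FPKM of 292 in iPSCs, 47.7 in mESCs, 8.42 in NTC cells and 2451 in MEFs. Its neighbour Igf2, from the paternal copy, had 8.58 in iPSCs, 3.87 in mESCs, 0.826 in NTC cells and 759 in MEFs. Both are abundant in MEFs, and for both the order of the 3 stem cell libraries was the same. Mkrn3, a paternally expressed gene, had 6.67 in iPSCs, 1.32 in mESCs and 3.13 in NTC cells. Of 39 imprinted genes outside the Dlk1-Dio3 region, 10 were higher (25.6%) and 3 lower (7.69%), against 10.1% and 7.44% of all genes. The median was 0.44. Of the 39, 3 passed through iPSCs only and 1 through mESCs only. Over the other 35, 7 were higher and 2 lower, with a median of 0.35. Phlda2, a maternally expressed gene of the placenta, was lower, at 36.3 in iPSCs, 105 in mESCs and 35.9 in NTC cells, with NTC cells at the iPSC level. Genes of the Y chromosome were higher in iPSCs. Eif2s3y had 22 in iPSCs, 6.57 in mESCs, 3.77 in NTC cells and 5.14 in MEFs, and Ddx3y had 5.06, 1.02, 2.18 and 3.84. Kdm5d, just under the limit, was at 0.997 in iPSCs and listed at 0 in mESCs, and Uty was at 0.973 and 0.367. Their X-linked partners Eif2s3x, Ddx3x, Kdm5c and Kdm6a had ratios of -0.42, -0.32, -0.43 and 0.08. Eif2s3x shares 34.6% of its 50-base stretches with other genes, so its value is uncertain.

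Of 40 histone genes of the replication-dependent class that passed, 9 were higher (22.5%) and 10 lower (25%) in iPSCs. Of all genes, 10.1% were higher and 7.44% lower. Of the 40, 6 passed through iPSCs only and 3 through mESCs only, and over the other 31, 3 were higher and 8 lower. Of the 10 lower ones, 9 were H2A genes and the other was Hist1h3f. Hist1h2ad had an FPKM of 18.7 in iPSCs, 153 in mESCs, 152 in NTC cells and 3.34 in MEFs, Hist1h2ah had 41.7, 222, 169.7 and 12.2, and Hist1h2af had 5.8, 57.3, 71.4 and 0.694. Both V6.5 libraries had these genes at like levels, and iPSCs lay between them and MEFs. Not all H2A genes were lower. Hist3h2a was higher, at 17.5 in iPSCs, 3.70 in mESCs, 1.04 in NTC cells and 25.6 in MEFs, and Hist1h2ag was at 102 in iPSCs, 102 in mESCs and 55.9 in NTC cells. The H2A copies share most of their sequence, with 90.7% of the 50-base stretches of Hist1h2ah found in other genes, so the assignment among copies is uncertain. Most transcripts of this class lack a poly(A) tail, and how the RNA was selected is not given in the sources used here.

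Fibroblast transcripts were examined in order to see whether MEFs left a trace. In all, 68 genes reached an FPKM of 50 in MEFs and at most 1% of that level in NTC cells. Their median level was 0.218% of the MEF level in iPSCs (quartiles 0.0363% and 0.880%), 1.47% in mESCs (0.671% and 2.54%) and 0.0614% in NTC cells, the last being low by the choice of genes. The level was higher in mESCs than in iPSCs for 59 of the 68 genes and at least 2-fold lower in iPSCs for 47. By the sum of these genes, in contrast, iPSCs were at 1.49% and mESCs at 1.54% of MEFs, and without H19 at 0.437% and 1.5%. Most of these transcripts were thus higher in the mESC library, but the sums were close when H19 was included. Col1a1 had an FPKM of 1.68 in iPSCs, 20.5 in mESCs, 1.24 in NTC cells and 3672 in MEFs. Acta2, smooth muscle actin, had 0.670 in iPSCs and 19.3 in mESCs, was listed at 0 in NTC cells and had 2304 in MEFs. Lox, a collagen cross-linking enzyme, had 0.105 in iPSCs, 5.44 in mESCs and 348 in MEFs, and Tnc, tenascin C, had 0.0976, 5.21 and 316, both being listed at 0 in NTC cells. For all of these, the mESC library alone among the stem cell libraries was above a few FPKM.

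Of 28 fibroblast markers that passed the limit, 17 were at least 2-fold lower in iPSCs (60.7%, against 7.44% of all genes). Only 1, Twist1, was higher (3.57%, against 10.1%), and the median was -2.95. Of the 28, 13 passed through mESCs only and so had to be lower in iPSCs. Over the other 15, 5 were lower, 1 was higher and the median was -0.34, and over all 39 in the table it was -2.11. Twist1, a factor of mesenchyme, had an FPKM of 11.8 in iPSCs, 2.77 in mESCs, 2.1 in NTC cells and 53.5 in MEFs. Against NTC cells the median of the same genes was 0.50. The summed level of the 39 listed markers was 0.488% of that in MEFs in iPSCs, 1.51% in mESCs and 0.338% in NTC cells. Vim (vimentin) differed from this pattern, since it had an FPKM of 5.79 in iPSCs, 70.2 in mESCs, 154 in NTC cells and 3074 in MEFs, with iPSCs the lowest. Some genes were higher in mESCs, relative to MEFs, than the rest. Ccl2, a chemokine, had 10.2 in mESCs, 18.5% of its MEF level of 55.1, and was listed at 0 in iPSCs and NTC cells. Mmp3, a stromal protease, had 5.97 in mESCs and 2.13 in MEFs and was likewise listed at 0 in the other stem cell libraries. Lyz2, a lysozyme of macrophages, had 0.0856 in iPSCs, 1.59 in mESCs and 142 in MEFs, and 10 of 20 macrophage markers were listed at 0 in iPSCs and 6 in mESCs. Only 4 macrophage markers passed, 3 higher and 1 lower in iPSCs, among them Laptm5, at 145 in iPSCs, 24.0 in mESCs, 59.3 in NTC cells and 18 in MEFs, so that all stem cell libraries were above MEFs. Of 6 endothelial markers that passed, 2 were higher and none lower, 1 of these through iPSCs only, with Tek at 5.52 in iPSCs, 0.639 in mESCs and 0.422 in NTC cells. Of 17 mesenchymal genes, 2 were higher (11.8%) and 5 lower (29.4%), and of 22 interferon and MHC genes, 3 were higher (13.6%) and 5 lower (22.7%), against 10.1% and 7.44% of all genes, with medians of -0.18 and -0.37. Over those at the limit in both libraries, 2 of 11 mesenchymal genes were higher and 2 lower, with a median of 0.13, and 3 of 19 interferon and MHC genes were higher and 3 lower, with a median of -0.25.

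**Figure D4:**
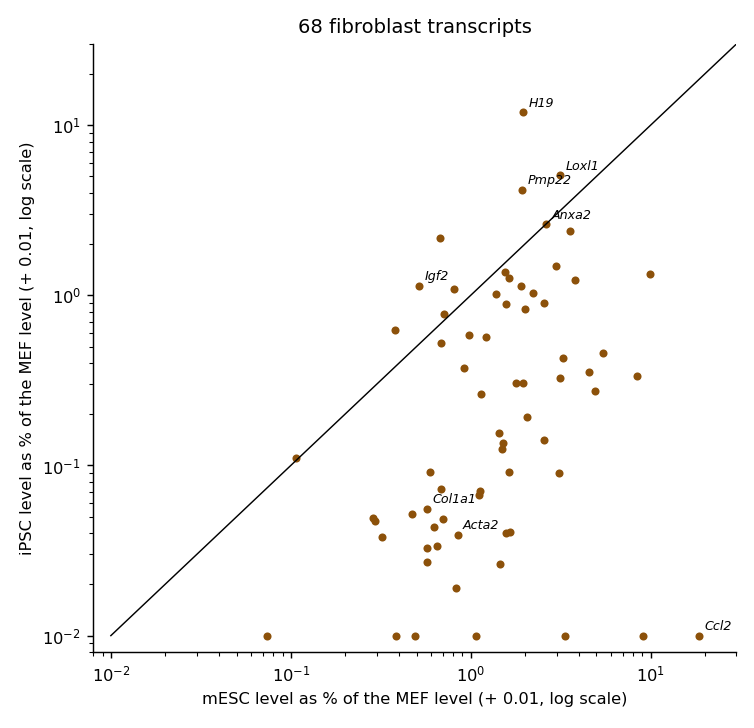
Level of 68 fibroblast transcripts in mESCs (x axis) and iPSCs (y axis) as a percentage of the MEF level, with 0.01 added, on log axes, and the line of equality. In all, 59 genes lie below the line, with H19 and Loxl1 among the 9 above it.

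In iPSCs, 61 of the 68 fibroblast transcripts had a value above 0. Of the 68, 9 were higher in iPSCs than in mESCs, of which 4 by at least 2-fold: H19, Igf2, Pmp22 and Tgfb1i1, chosen here after their values were seen. H19 reached 11.9% of its MEF level in iPSCs and 1.95% in mESCs. Pmp22, a membrane protein of myelin and fibroblasts, reached 4.17% and 1.92%. Of the 1241 genes at least 2-fold higher in iPSCs, 703 (56.6%) had an FPKM of at least 1 in MEFs, 256 (20.6%) were higher in MEFs than in both stem cell libraries and 18 (1.45%) were at least 10-fold above both. Of the 917 genes at least 2-fold lower in iPSCs, 617 (67.3%), 278 (30.3%) and 75 (8.18%) met the same criteria. Of the 10165 genes within 2-fold, 87.1% reached an FPKM of 1 in MEFs, 31.7% were higher in MEFs and 1.12% were at least 10-fold higher. Genes at least 10-fold higher in MEFs thus numbered 18 among the higher, 75 among the lower and 114 among the others. Without all genes at least 10-fold above both in MEFs, 1223 genes were higher and 842 lower.

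The genes of chromosome 8, and of parts of chromosomes 11, 12 and 14, had medians away from 0. Over the 8442 genes that reached an FPKM of 5 in iPSCs or mESCs and had a position on an autosome or X, the median log2 ratio was 0.01. On chromosome 8, 521 genes had a median of -0.40 (quartiles -0.76 and -0.05), and 14.8% of them were at least 2-fold lower in iPSCs while 1.92% were higher. On chromosome 11, 782 genes had a median of 0.23, and 12.1% were at least 2-fold higher. The medians of the other 17 autosomes lay between -0.06 and 0.13. For NTC cells over mESCs, chromosome 8 had a median of 0.02, and the autosomes lay between -0.21 and 0.17, with chromosome 11 at the upper end. Chromosome 8 thus set iPSCs apart from both V6.5 libraries, with -0.43 against NTC cells, whereas chromosome 11 did so less clearly, with 0.06 to 0.08 depending on the library used for the limit. DNA content was not measured, and whether copy number differs between the lines was not tested.

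**Figure D5:**
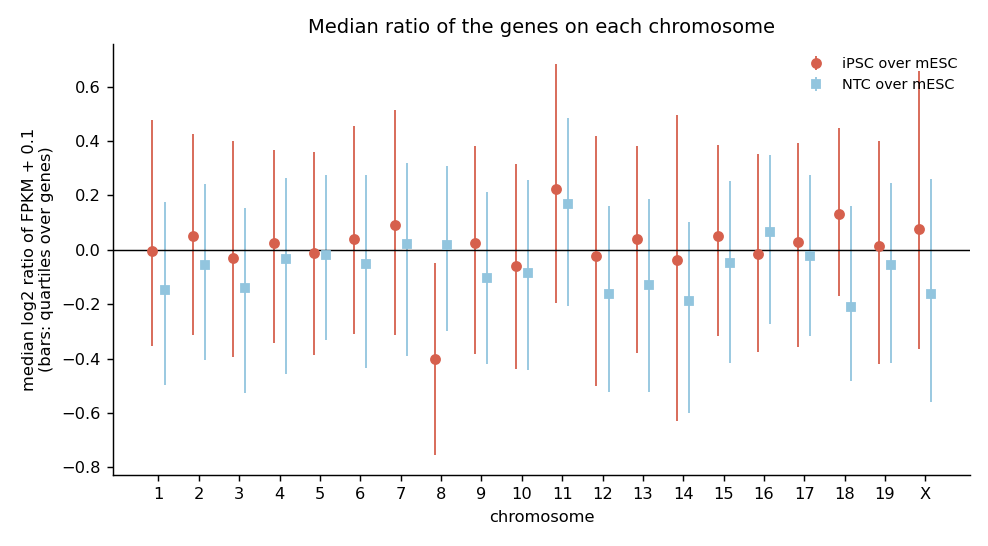
Median log2 ratio of the genes on each chromosome (points) with quartiles over genes (bars), for iPSCs over mESCs in red and NTC cells over mESCs in light blue. Chromosome 8 is the lowest for iPSCs, at -0.40, and lies at 0.02 for NTC cells.

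Windows of 10 Mb with at least 20 such genes were then compared, the windows being inspected before the stretches below were chosen. All 10 windows of chromosome 8 had a negative median, from -0.76 to -0.22. On chromosome 11, the 337 genes from 90 Mb to the end had a median of 0.56 (quartiles 0.12 and 0.89), with 79.8% above 0, whereas the 389 genes before 80 Mb had -0.01. Against NTC cells the distal part had 0.34, and NTC cells over mESCs had 0.22. On chromosome 12, the 72 genes from 100 Mb to the end had a median of -0.78, with 12.5% above 0, and the 206 genes before it had 0.19. NTC cells over mESCs had -0.17 and -0.16 in these parts, so NTC cells showed no such step along chromosome 12. On chromosome 14, the 135 genes from 40 to 70 Mb had a median of -0.32 and the 70 genes beyond 70 Mb one of 0.52. NTC cells over mESCs had -0.21 and -0.30 in these parts, and iPSCs over NTC cells had -0.07 and 0.80. Over 112 windows on the autosomes other than 8, 11, 12 and 14, the central 90% of medians lay between -0.17 and 0.20, and the full range was -0.29 to 0.39. The single full window of chromosome 14 beyond 70 Mb, at 0.40, lay just above that range. Over 5 classes of transcript G+C content of equal size, the median ratios of iPSCs over mESCs lay between -0.02 and 0.04, whereas those of NTC cells over mESCs lay between -0.26 and 0.07 and those of iPSCs over NTC cells between -0.04 and 0.31. Ratios with NTC cells thus moved with G+C content, being furthest from 0 in the class of lowest content. The median of chromosome 8 was -0.41 after subtraction of the median at like G+C content.

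Several genes named above or below lie in these stretches. Sox1, Jund, Mt1, Mt2, Aars, Gcsh and Msmo1 lie on chromosome 8. Meg3, Rian, Mirg, Dlk1, Dio3, Begain and Ifi27 lie on the distal part of chromosome 12. Krt19, Dlx3, Abi3, Etv4, E130012A19Rik, Cbx8 and Col1a1 lie on the distal part of chromosome 11. Otx2, Tdh, Klf5 and Trim52 lie on chromosome 14 beyond 40 Mb. Runs of neighbours on chromosomes 8, 11 and 14 numbered 3, 4 and 3 of the 22, and chromosome 7, with a median of 0.09, held 5. Without genes on chromosome 8 and the parts of 11, 12 and 14 from 40 Mb (14), 90 Mb (11) and 100 Mb (12) on, 1060 genes were at least 2-fold higher in iPSCs and 717 lower. The medians of the ATF4, germ cell, trophectoderm and cholesterol lists moved by less than 0.47, the spread of list medians between the V6.5 libraries, whereas that of the formative list moved to -0.03.

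Promoter CpG content could be described for matched genes only. A RefSeq promoter was matched to 9743 of the 12323 genes (79.1%). The promoters held a median of 14.5 CpG for the 201 matched genes at least 4-fold higher in iPSCs, 10 for the 143 at least 4-fold lower and 22 for the 3111 within 1.2-fold. At most 5 CpG were found in 20.4%, 31.5% and 4.08% of them. Since the matched share was under 80% in every class, this check is void as a comparison and the counts describe the matched genes only. By RefSeq class, 90.8% of the genes at least 4-fold higher and 94.3% of those at least 4-fold lower code for proteins, against 96.7% of all 12323.

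Some genes at the extremes belonged to no list. Rpl37rt, a retrotransposed copy of Rpl37, had the highest ratio on the FPKM + 0.1 scale, with an FPKM of 13 in iPSCs, 0.125 in mESCs and 1.71 in NTC cells, but shares 38.5% of its 50-base stretches with other genes. Slco2a1, a prostaglandin transporter, had 11.3 in iPSCs, 0.360 in mESCs, 0.774 in NTC cells and 5.18 in MEFs. Trim52 had 5.44 in iPSCs, 0.195 in mESCs and 0.215 in NTC cells, and Abi3, a regulator of actin, had 7.52, 0.535 and 1.2. For these 3 genes, both V6.5 libraries were far under iPSCs. At the other end, Igf2bp3, an RNA-binding protein of fetal tissues, had 1.36 in iPSCs, 18.6 in mESCs, 13.8 in NTC cells and 16.3 in MEFs, and Ttc9b had 0.317, 8.39 and 3.43 and was listed at 0 in MEFs. Ifi27, Tmem176a and Igfbp7, all abundant in MEFs, had 0.145, 0.178 and 1.08 in iPSCs, 7.45, 5.15 and 20.3 in mESCs and 1.09, 0.247 and 1.22 in NTC cells. Igf2bp3 was thus low in iPSCs alone, while the last 3 were high in mESCs alone among the stem cell libraries.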

How the data were processed

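RNA was sequenced on an Illumina HiSeq X instrument. The authors mapped reads to mm10 with TopHat2 2.1.0, assembled transcripts with StringTie 1.3.4d and summarised genes with Ballgown; the submitters' processing notes also name SAMtools 1.7 and list mm9. The deposited values are FPKM per gene symbol, normalised by the authors for transcript length and mapped fragments; gene annotation, strand setting and RNA selection are not given in the sources used here. Depth is an estimate from single-transcript genes, for 1 library per cell type, and floors cover counting error only. The Gldc knockdown column, 1 column of per-sample values, was not used.

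Ratios are log2(FPKM + 0.1) differences, which understate the change of low genes; genes had to reach an FPKM of 1 in iPSCs or mESCs, and no p-value was computed. Lists were described by counts at 2-fold and by medians. Values of NTC cells come from a separately made table and are set across tables. The genes compared and the 36 lists were chosen with earlier results of these data known. Named genes were the 15 highest and 15 lowest ratios among genes that reached an FPKM of 5 (small RNAs, Gm, Rik and pseudogene symbols left out), the extremes of each list, list members at least 4-fold apart, the reprogramming factors, and the glycine, Dlk1-Dio3 and sex-linked lists; other list members are examples chosen after their values were seen. Gene positions and promoters came from RefSeq (GRCm38.p6, the same build as mm10), exon overlaps and 50-base sharing from GENCODE M21. Scripts were tested on simulated data. Alternatives were other pseudocounts, filters, scalings, symbol sets and NTC as the mESC library. Python 3.11.15, numpy 2.4.6, pandas 2.3.3 and matplotlib 3.10.9 were used. Some genes that this rule names are not reported here.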

Additional observations from a re-analysis of the deposited data

How the results depend on the processing

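No paired analysis was possible because each group was 1 library, and no replicate could be left out. A value counted as moved when it changed by more than the spread between both V6.5 libraries (0.59 for a gene, 0.47 for a list median, 0.09 for a chromosome median) or, for a count, by over 1.5 times. Of the list medians, 290 stayed within this spread over the alternatives tried, 30 moved, and 3 with a main value of at least 2-fold turned in sign; of the chromosome medians, 111 stayed and 9 moved; of the values of named genes, 462 stayed, 142 moved, and 21 of at least 2-fold turned in sign. Counting main values of any size, 25 list medians, 18 chromosome medians and 29 values of named genes changed sign. The counts of genes at least 2-fold higher and lower were 753 and 556 with a pseudocount of 1, 2015 and 1461 without the filter, 634 and 502 with an FPKM limit of 5, and 759 and 604 with a limit of 1 in both libraries. With a pseudocount of 1 the share of genes at least 2-fold apart between the V6.5 libraries was 8.76% and the fibroblast median -1.59; with the limit of 5 that share was 9.64%. The limit of 5, which leaves fewer members, gave medians of 0.042 (formative, turned in sign), 0.091 (2-cell-like, turned), 1.29 (streak), -1.02 (early neural), -1.98 (Dlk1-Dio3), -0.73 (Nodal), -0.32 (histones, turned), -3.46 (fibroblast), 1.86 (macrophage) and 0.98 (endothelial). The limit of 1 in both libraries, applied to lists after seeing the data, gave 0.042 (formative, turned), 0.11 (streak), -0.34 (fibroblast) and 1.86 (macrophage). Without the filter, medians were -0.48 (2-cell-like), 0.64 (sex-linked, turned), -2.11 (fibroblast) and 0 (macrophage). With NTC cells in place of mESCs, and the limit applied to that pair, 2003 genes were higher and medians were 1.73 (primitive endoderm), 2.07 (trophectoderm), -1.59 (Dlk1-Dio3), 1.59 (immediate early), -0.67 (Wnt), 1.68 (epithelial), and, turned in sign, -0.13 (naive), -0.34 (streak), 0.24 (interferon), 0.73 (mesenchymal), -0.35 (reprogramming factors), 0.89 (2-cell-like) and 0.41 (fibroblast). Single genes at least 2-fold apart that turned in sign there had log2 ratios of -0.66 (AI662270), 1.04 (Lox), 0.98 (Tnc), 2.95 (Acta2), 1.56 (Col1a2), 0.30 (Dppa3), 1.35 (Thbd), -0.85 (Cited1), -0.68 (Cdx2), 2.07 (Esx1), 0.20 (Sox1), -0.77 (Dlk1), -0.027 (Tsix), 0.63 (Grem1), -0.67 (Dmgdh), 1.34 (Dsp), 1.67 (Tagln), 0.41 (Col1a1), 4.29 (Bgn), 0.89 (Lyz2) and -2.03 (Myc). Chromosome medians against NTC cells, an alternative added after seeing the data, were 0.11 (1), 0.20 (3), 0.14 (6), 0.035 (10), 0.057 (11), 0.11 (12), 0.088 (14), 0.31 (18) and 0.19 (X), those of chromosomes 1, 3, 10, 12 and 14 having turned in sign from values near 0, while that of chromosome 8 stayed. Leaving out the shifted chromosome parts, also added after seeing the data, gave a formative median of -0.029. Rescaling to equal FPKM sums gave 1106 higher and 1033 lower genes. The causes of these changes were not tested. The fibroblast median was higher in mESCs than in iPSCs in each of the 5 settings tried, from 1.11% against 0.0627% to 1.55% against 0.258%.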

Other observations

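Among the runs of neighbouring genes at least 2-fold apart in the same direction, several held genes not described above. A run on chromosome 7 held the apolipoprotein genes Apoc2, Apoc4, Apoc1 and Apoe and their neighbour Clptm1. This run summed to an FPKM of 2990.3 in iPSCs, 1307 in mESCs, 937 in NTC cells and 229.9 in MEFs. By this sum, iPSCs were above both V6.5 libraries. A run of 4 genes on chromosome 9, Prr23a1, Prr23a2, Prr23a3 and the ovarian factor Foxl2, summed to 22.7 in iPSCs, 7.74 in mESCs, 19.4 in NTC cells and 0.0807 in MEFs, with mESCs as the lowest of the stem cell libraries. On distal chromosome 12, Ifi27 and the serine protease inhibitors Serpina3g, Serpina3h and Serpina3m summed to 0.145 in iPSCs, 15.1 in mESCs, 3.27 in NTC cells and 101 in MEFs. The 3 Serpina3 genes were listed at 0 in iPSCs, and all 4 genes passed the limit through mESCs only and so had to be lower in iPSCs. These runs were found in the same libraries that they describe, and no second iPSC library was compared.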
